A study of Rattus norvegicus with 10 samples.

Results

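A set of 9 genes for lipid droplet proteins, lipases and phospholipases were followed in whole mammary glands: the patatin-like lipases Pnpla3 and Pnpla2, the lipases Lipe and Mgll, the droplet proteins Plin1, Plin2 and Cidec, the lysosomal phospholipase Pla2g15 and the lysophospholipase-like protein Lyplal1. Their members were the probe sets whose only gene symbol in the platform annotation was one of the 9 names. Of the 9 genes, 8 had such a probe set and 12 probe sets in all were found, out of 15866 on the array that were not controls. Cidec, which joins lipid droplets into larger ones, had none and has no value here. Pnpla3, Pla2g15 and Lyplal1 were chosen by the difference in their signals between the diets, so their differences are a description and support nothing.

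The samples were soy-fed and casein-fed female SD rats at postnatal day 21, with 5 arrays for each diet. The soy group was given AIN-93G, a purified rodent feed, made with soy protein isolate, and the casein group had the same feed made with casein, both from gestation day 4 until weaning. The labels mention RNA pools and replicate cRNA targets, so arrays may not stand for different animals, and p-values reflect only how these samples vary, in part perhaps for technical reasons. The soy arrays are numbered 147, 149, 155, 157 and 159 and the casein arrays 6, 7, 10, 18 and 20, and values per array are given in these orders. All values are log2 MAS5 signals unless stated otherwise, and a level of 1 probe set is not set against that of another.

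Adipocytes store triglyceride in droplets whose surface is coated by perilipins. Perilipin 1 restrains breakdown in the unstimulated cell, and after adrenergic stimulation 3 enzymes remove the fatty acids in turn: Pnpla2 (adipose triglyceride lipase) acts on triglyceride, Lipe (hormone-sensitive lipase) on diglyceride and Mgll on monoglyceride. Perilipin 2 coats droplets in most other cells, among them the mammary epithelium, where it is part of the milk fat globule. Phospholipases cut membrane lipids instead, in the lysosome in the case of Pla2g15.

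Whole glands hold fat, epithelium, lymph node and, in some arrays, adjoining muscle, and the arrays differed in these. The summed signal of 21 skeletal muscle markers was high in 4 arrays: soy 147 had 78921, soy 149 had 146855, soy 157 had 197275 and casein 6 had 188718, while the remaining 6 arrays had 3395 to 5973. The sum of 14 lymph node markers was 4992 for soy 149 and 4043 for casein 6, while the remaining 8 arrays had 10032 to 17813. All 14 white adipocyte markers with a probe set passed the filter on dim signals described below, and their sum ranged from 58091 to 98596 in soy and from 60104 to 82671 in casein. Of 15 luminal epithelial markers 7 passed, and their sum, over all 15, ranged from 1623 to 10216 in soy and from 1203 to 16183 in casein. No marker of these lists was at 0 in all arrays. In such bulk samples fewer cells of a type and less RNA per cell cannot be told apart.

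The promoters shown are those of Plin1, Pnpla2 and Mgll, whose signals were correlated with those of adipocyte markers over the 10 arrays, in Mgll at 1 of 3 tested probe sets, and of Pnpla3, whose correlation did not pass. In Pnpla2 and Mgll the correlation was weak without the 4 arrays of highest muscle signal, as given with the values further on. Each is the stretch of 250 bases before the gene's start in RefSeq (GRCr8), and 8 of the 9 genes, all but Lipe, had an entry. Plin1 lies at chr1:143086149-143086398 on the minus strand, Pnpla2 at chr1:205982029-205982278, Mgll at chr4:122749186-122749435 and Pnpla3 at chr7:117173278-117173527, all 3 on the plus strand. Capitals mark matches on either strand to any of 6 motifs.
Plin1: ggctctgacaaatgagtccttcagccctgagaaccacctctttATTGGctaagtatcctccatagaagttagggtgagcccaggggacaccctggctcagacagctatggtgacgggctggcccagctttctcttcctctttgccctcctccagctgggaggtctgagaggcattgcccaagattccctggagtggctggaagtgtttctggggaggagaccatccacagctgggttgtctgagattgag
Pnpla2: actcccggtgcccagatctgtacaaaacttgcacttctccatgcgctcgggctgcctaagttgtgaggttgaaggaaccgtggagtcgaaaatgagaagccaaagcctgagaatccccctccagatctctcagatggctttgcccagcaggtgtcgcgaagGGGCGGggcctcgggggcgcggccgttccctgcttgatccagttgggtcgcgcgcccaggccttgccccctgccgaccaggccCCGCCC
Mgll: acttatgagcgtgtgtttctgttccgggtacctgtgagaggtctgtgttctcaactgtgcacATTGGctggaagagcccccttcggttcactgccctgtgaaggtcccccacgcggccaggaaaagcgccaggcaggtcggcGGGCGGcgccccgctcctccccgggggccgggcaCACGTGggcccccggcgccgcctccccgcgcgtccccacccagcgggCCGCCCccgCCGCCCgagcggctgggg
Pnpla3: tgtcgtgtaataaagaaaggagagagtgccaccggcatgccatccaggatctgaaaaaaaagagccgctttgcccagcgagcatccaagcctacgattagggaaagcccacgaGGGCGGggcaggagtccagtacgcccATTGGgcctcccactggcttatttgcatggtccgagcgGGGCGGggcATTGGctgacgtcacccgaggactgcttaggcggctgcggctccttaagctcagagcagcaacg
The motifs searched were the CCAAT box (CCAAT), the GC box (GGGCGG), the E-box (CACGTG), the nuclear receptor half-site (AGGTCA), the TATA box (TATAAA) and a sterol regulatory element (TCACNCCAC). Of all 33469 stretches of this length in the same table, 34.0% held the first, 30.5% the second, 5.59% the third, 14.1% the fourth, 12.9% the fifth and 0.974% the last. Pnpla3 held 2 CCAAT boxes and 2 GC boxes, and Pnpla2 held 2 GC boxes. Mgll held 3 GC boxes, 1 CCAAT box and 1 E-box, and Plin1 held 1 CCAAT box. The letters of the other motifs are not in these windows, which says nothing of the factors themselves. The G and C content was 55.6% in Plin1, 63.6% in Pnpla2, 72.4% in Mgll and 59.2% in Pnpla3, against a median of 51.2% over the table.

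The comparison of the diets asks how soy protein in the early diet bears on the young mammary gland. Testing was limited to probe sets with an average log2 signal of 7.47 or more, the 40th percentile, which 11 of the 12 member probe sets reached. The exception was a dim probe set of Mgll (1375355_at), at 5.87, 6.29, 6.02, 6.83 and 5.71 in soy and 3.39, 5.67, 6.19, 5.65 and 5.21 in casein, and it was left out of the comparison of the diets. Over all 9520 probe sets tested in limma, 0 (0%) had an adjusted p under 0.05, with a smallest adjusted p of 0.98, while 433 (4.55%) had an unadjusted p under 0.05, 220 of them higher in soy (2.31%) and 213 lower (2.24%). No member therefore passed, and no difference below is a called change. Signals of the diets did not overlap for 0.798% of the probe sets tested, 0.441% with soy higher and 0.357% with soy lower. The 3 members without overlap are those picked for it, so nothing is read from that count.

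The 3 genes picked for their difference were lower in soy for Pnpla3 and Lyplal1 and higher for Pla2g15. Pnpla3, known in human and mouse as an insulin- and feeding-responsive droplet enzyme of triglyceride and retinyl ester turnover, had log2 signals of 8.45, 9.12, 8.99, 8.53 and 8.09 in soy and 9.57, 9.49, 9.28, 10.74 and 10.38 in casein. Every soy array lay below every casein array, but only narrowly at the edge, where soy 149 was at 9.12 and casein 10 at 9.28, and casein 18 and casein 20 stood above the other 3 casein arrays. The means were 8.64 ± 0.42 in soy and 9.89 ± 0.63 in casein (SD, n = 5 each), a log2 fold change of -1.25 ± 0.29 (SE), or 0.419 times the casein signal. Without casein 18 the difference was -1.04.

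Lyplal1, a serine hydrolase related to acyl-protein thioesterases whose human locus is linked to body fat distribution, was at 7.45, 8.28, 8.33, 8.03 and 8.16 in soy and 8.56, 8.90, 8.73, 8.62 and 8.80 in casein. The casein arrays lay close together, and soy 147 was well below the other soy arrays. The means were 8.05 ± 0.35 in soy and 8.72 ± 0.14 in casein (SD, n = 5 each), a log2 fold change of -0.67 ± 0.16 (SE), which was -0.52 without soy 147. Pla2g15 removes fatty acids from phospholipids in the lysosome and was at 9.49, 9.86, 9.30, 9.37 and 9.54 in soy and 8.77, 9.06, 8.94, 8.95 and 9.23 in casein. The gap between the diets was small, with soy 155 at 9.30 against casein 20 at 9.23. Its means were 9.51 ± 0.22 in soy and 8.99 ± 0.17 in casein (SD, n = 5 each), a log2 fold change of 0.52 ± 0.12 (SE), or 1.43 times the casein signal.

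The sizes of these 3 differences under other settings are a description only, since the genes were picked for them and, with no overlap between the diets, leaving out arrays could not turn their sign. With the adipocyte marker signal of each array as a covariate they were -1.25 for Pnpla3, -0.67 for Lyplal1 and 0.52 for Pla2g15. With covariates for muscle and lymph node signal they were -1.15, -0.54 and 0.60 in that order of genes, and without the 4 arrays of highest muscle signal, which leaves 2 soy and 4 casein arrays, -1.43, -0.52 and 0.37. Without soy 149 and casein 6, the arrays low in lymph node markers, they were -1.45, -0.77 and 0.38. A measure of RNA quality, the ratio of the 3' to the 5' beta-actin control probe set, was 1.43, 1.41, 1.57, 1.47 and 1.54 in soy and 1.33, 1.30, 1.22, 1.49 and 1.55 in casein, where 3 casein arrays lay below every soy array. With this ratio as a covariate the differences were -1.61 for Pnpla3, -0.72 for Lyplal1 and 0.51 for Pla2g15.

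**Figure D1:**
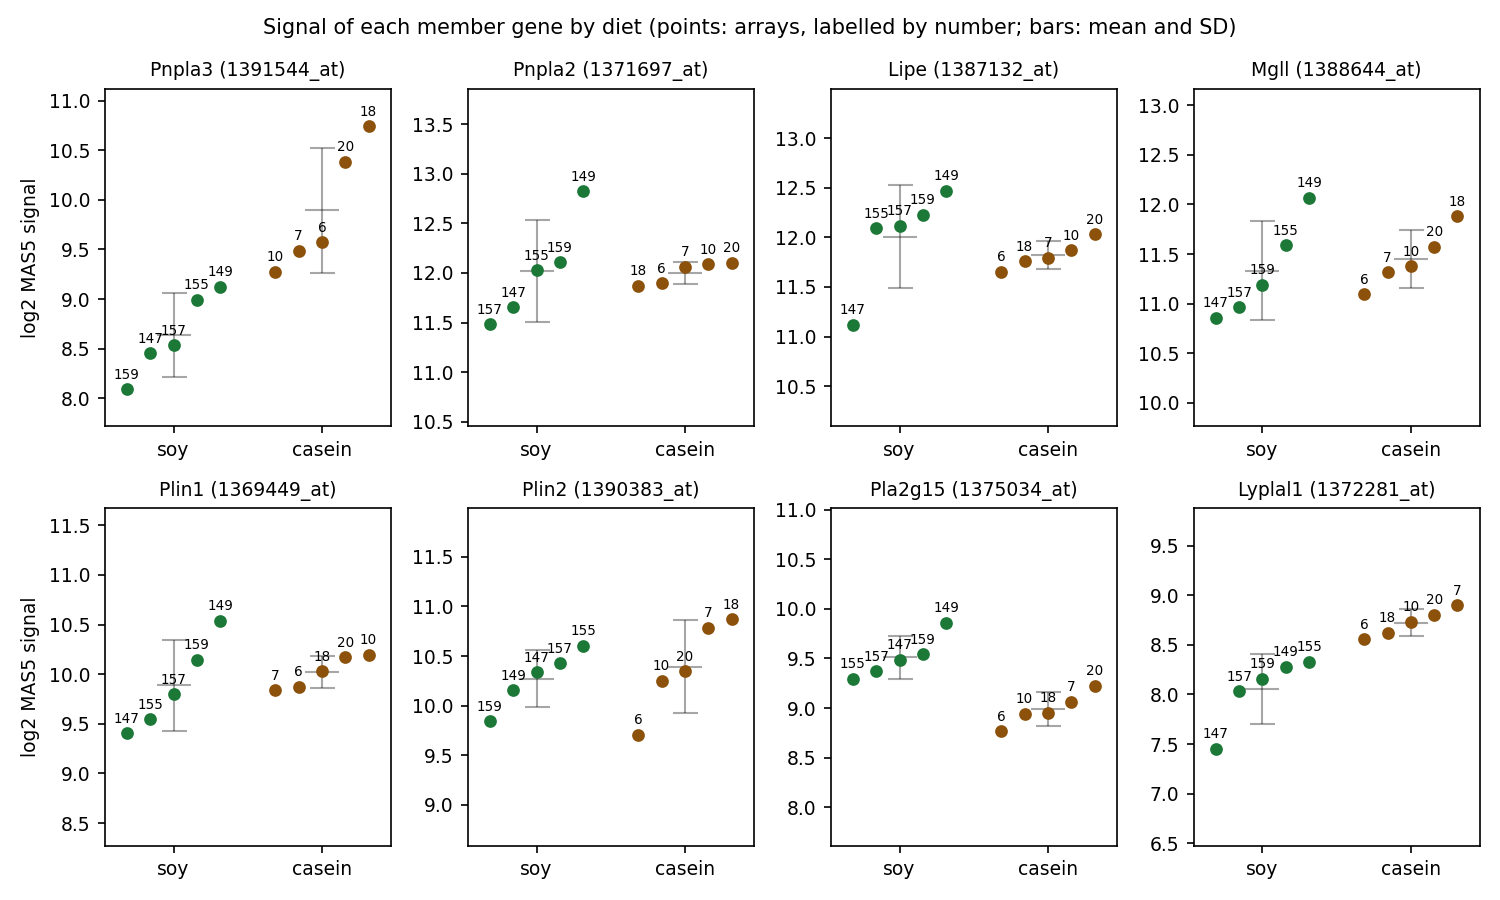
Log2 MAS5 signal of the brightest probe set of each of the 8 genes, in soy (left) and casein (right). Points are arrays with their numbers, bars are the mean and SD (n = 5 each), and every panel spans the same range. The diets separate for Pnpla3, Lyplal1 and Pla2g15, which were picked for it, and overlap in the other 5 panels.

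The 5 genes not picked for diet showed no difference that passed. At their 8 tested probe sets the log2 fold changes ran from -0.21 to 0.18, with 6 negative and 2 positive, and the diets overlapped at all 8. The negative ones were the probe sets of Mgll, Plin2 and Plin1, and the positive ones those of Pnpla2 and Lipe. The median of the 8 was -0.13, against -0.01 over all probe sets tested. Mgll and Plin2 had several of these probe sets, so the counts and the median are not by gene, and no shift is read from them. In limma 0 of the 8 had an unadjusted p under 0.05, with p from 0.33 to 0.94 and a smallest adjusted p of 0.99. The 95% intervals of the difference reached from -0.73 to 0.64 at the widest, so these arrays leave differences up to that size undecided.

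Among the lipases of the classical breakdown pathway, Pnpla2 was at 11.65, 12.82, 12.03, 11.49 and 12.11 in soy and 11.90, 12.06, 12.09, 11.87 and 12.10 in casein. The casein arrays lay within a narrow band, and the soy arrays lay on both sides of it. The means were 12.02 ± 0.52 in soy and 12.00 ± 0.11 in casein (SD, n = 5 each), a log2 fold change of 0.015 ± 0.21 (SE, 95% interval -0.44 to 0.47), whose sign turned to -0.037 under quantile normalization and -0.0064 under median centring. Lipe was at 11.12, 12.47, 12.09, 12.12 and 12.23 in soy and 11.66, 11.79, 11.87, 11.76 and 12.03 in casein. In Lipe 4 soy arrays lay above every casein array and soy 147 lay below every one. The log2 fold change was 0.18 ± 0.21 (SE, 95% interval -0.28 to 0.64), and 0.41 without soy 147 and 0.067 without soy 149.

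Mgll, the last enzyme of the pathway, had 3 tested probe sets. At the brightest (1388644_at) it was at 10.86, 12.07, 11.59, 10.96 and 11.19 in soy and 11.10, 11.32, 11.38, 11.88 and 11.58 in casein, with a log2 fold change of -0.12 ± 0.22 (SE). The 2 lowest and the highest of these values were all in soy. The other probe sets gave -0.21 ± 0.24 (1370831_at) and -0.18 ± 0.18 (1375247_at, both SE). At 1370831_at the difference was -0.031 without soy 159, -0.39 without soy 149 and -0.55 without the 4 arrays of highest muscle signal, and at 1375247_at it was -0.33 without soy 149 and -0.081 without soy 157. Signals of 1388644_at and 1375247_at followed each other over the arrays (Pearson r = 0.90, Spearman rho = 0.88, permutation p = 0.0005 and 0.0015, adjusted over the 7 pairs of same-gene probe sets 0.0035 and 0.011, r = 0.84 without soy 149 and casein 18). The probe set 1370831_at was less close to 1388644_at (r = 0.53, rho = 0.45, permutation p = 0.11 and 0.19, adjusted 0.28 and 0.36, r = 0.29 without the same 2 arrays). Without soy 147 the brightest probe set turned to 0.0038, and without soy 149 it was -0.30.

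Of the droplet coat proteins, Plin1 was at 9.41, 10.54, 9.55, 9.80 and 10.14 in soy and 9.87, 9.84, 10.20, 10.03 and 10.17 in casein. Soy 149 was the highest of the 10 arrays and soy 147 the lowest. The means were 9.89 ± 0.46 in soy and 10.02 ± 0.17 in casein (SD, n = 5 each), a log2 fold change of -0.14 ± 0.19 (SE, 95% interval -0.56 to 0.29), and -0.30 without soy 149 and -0.016 without soy 147.

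Plin2 had 2 tested probe sets, both with a small difference between diets but with different patterns over the arrays. At 1390383_at it was at 10.34, 10.15, 10.61, 10.43 and 9.84 in soy and 9.71, 10.78, 10.25, 10.87 and 10.35 in casein, a log2 fold change of -0.12 ± 0.22 (SE). Casein 18 and casein 7 were highest there and casein 6 and soy 159 lowest. At 1382680_at it was at 9.01, 9.64, 8.86, 8.67 and 9.22 in soy and 9.49, 9.07, 9.17, 9.56 and 8.99 in casein, a log2 fold change of -0.17 ± 0.18 (SE), with soy 149, casein 18 and casein 6 highest. The probe sets did not follow each other (r = -0.27, rho = -0.37, permutation p = 0.45 and 0.30, adjusted over the same 7 pairs 0.72 and 0.42, r = -0.50 without casein 6 and casein 18). A statement on Plin2 over the arrays therefore depends on the probe set. The first probe set was at -0.29 without casein 6 and -0.00019 without casein 18, and the second at -0.31 without soy 149 and -0.07 without soy 157.

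**Figure D2:**
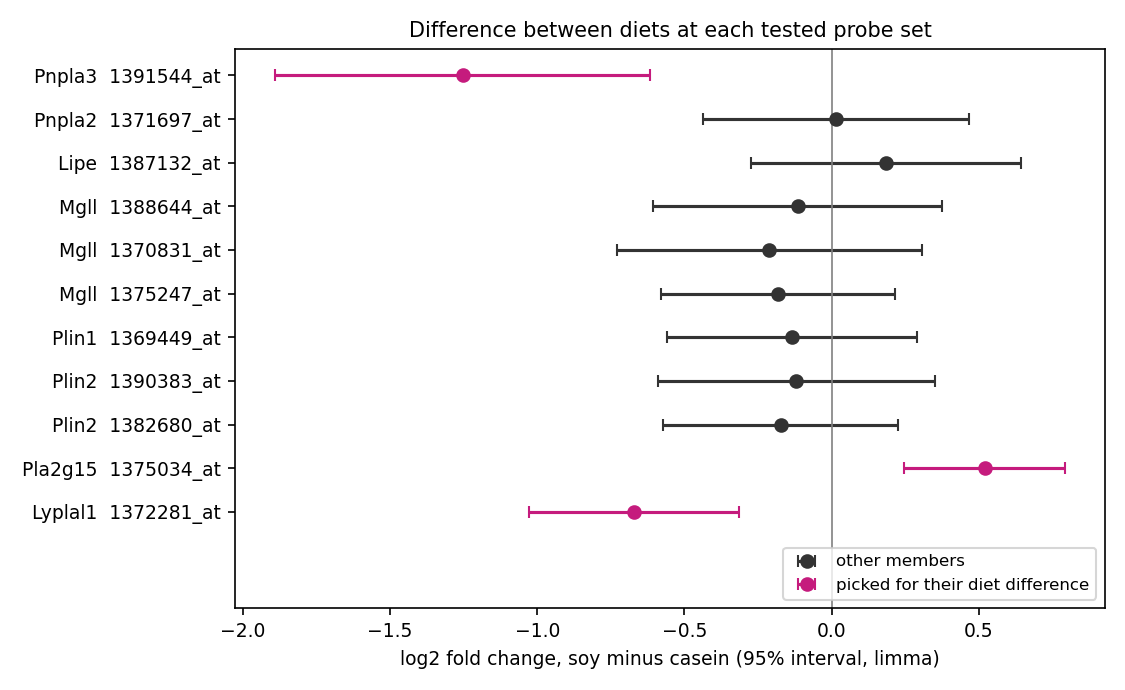
Log2 fold change, soy minus casein, of the 11 tested probe sets with 95% intervals from limma. The intervals of all 8 probe sets of genes not picked for diet span 0, while the 3 picked for diet stand at -1.25, 0.52 and -0.67.

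The SD was larger in soy than in casein at 7 of the 8 probe sets not picked for diet, among them 3 of Mgll, and at 60.9% of all probe sets tested. Whether the members differ from that share was not tested. The share of all probe sets tested with their highest or lowest value in a given array was not counted. Of the brightest probe sets of the 5 genes, 4 were highest in soy 149 and 3 lowest in soy 147. The mean log2 signal of the white adipocyte markers was likewise highest in soy 149, at 12.09, and lowest in soy 147, at 11.21, and averaged 11.65 ± 0.34 in soy and 11.65 ± 0.17 in casein (SD, n = 5 each). The muscle marker signal was high in both of these soy arrays, and its part in the spread was not tested.

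The 11 tested probe sets were then set against the mean log2 signals of the 14 adipocyte and the 7 tested luminal epithelial markers over the 10 arrays, 22 relations in all. The adipocyte list holds Fabp4 and other genes of the same cells but none of the members. Plin1 followed the adipocyte markers (Pearson r = 0.89, permutation p = 0.00098, adjusted over the 22 relations 0.011; Spearman rho = 0.85, permutation p = 0.0028, adjusted 0.044). For Pnpla2 r was 0.81 (permutation p = 0.0058, adjusted 0.026) and rho 0.82 (p = 0.0060, adjusted 0.044). For Mgll at its brightest probe set r was 0.81 (permutation p = 0.0043, adjusted 0.026) and rho 0.77 (p = 0.012, adjusted 0.065). The other tested probe sets of Mgll did not pass, with r = 0.69 and rho = 0.71 at 1375247_at (permutation p = 0.027 and 0.026, adjusted 0.10 and 0.12) and r = 0.35 and rho = 0.25 at 1370831_at (permutation p = 0.33 and 0.49, adjusted 0.53 and 0.77). For Lipe r was 0.81 (permutation p = 0.0054, adjusted 0.026), but rho was 0.56 (p = 0.096, adjusted 0.30). As deviations from the diet means r was 0.90 for Plin1, 0.81 for Pnpla2, 0.82 for Mgll and 0.84 for Lipe, but in Pnpla2 this came from the soy arrays, with r of 0.90 among the 5 soy arrays and 0.28 among the 5 casein arrays.

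These relations leaned on the extreme arrays. Without soy 147 and soy 149, the arrays farthest from the median of these genes, r was 0.68 for Plin1 and 0.38 for Lipe. Among the casein arrays alone, which include neither of them, r for Lipe was 0.76. Whether the relation of Lipe rests on soy 147 and soy 149 was not tested. Without the 2 arrays farthest from its own median r was 0.76 for Pnpla2 (soy 149 and soy 157) and 0.72 for Mgll (soy 149 and casein 18). Over the 6 arrays left without the 4 of highest muscle signal r was 0.67 for Plin1, 0.50 for Lipe, 0.12 for Pnpla2 and 0.12 for Mgll. Pnpla3, Pla2g15 and Lyplal1 had r of 0.26, 0.34 and 0.40 with the adipocyte markers, none of them past the threshold (permutation p = 0.47, 0.34 and 0.25, adjusted 0.69, 0.53 and 0.52, and rho = 0.28, 0.19 and 0.28). These r include the diet difference the genes were picked for. Taken as deviations from the diet means they were 0.41, 0.63 and 0.67, which were not tested. Over all arrays but the 2 farthest from each gene's median r was 0.023, -0.28 and 0.12.

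Plin2 at 1390383_at followed the luminal epithelial markers instead (r = 0.90, permutation p = 0.00046, adjusted over the 22 relations 0.010; rho = 0.83, permutation p = 0.0047, adjusted 0.044). Its highest arrays, casein 18 and casein 7, had luminal marker means of 9.81 and 10.70, and its lowest, casein 6 and soy 159, of 6.73 and 7.04. Without casein 6 and casein 18, the arrays farthest from its median, r was 0.89, as deviations from the diet means it was 0.90, and over the 6 arrays of low muscle signal 0.91. With the adipocyte markers the same probe set had r = -0.14 (rho = -0.22, permutation p = 0.70 and 0.53, adjusted 0.82 and 0.78). At 1382680_at Plin2 had r = -0.42 with the luminal markers (rho = -0.37, permutation p = 0.23 and 0.30, adjusted 0.52 and 0.60), so the relation was seen at 1 of the 2 probe sets. The other luminal relations did not pass, with adjusted p for r from 0.52 to 0.95.

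**Figure D3:**
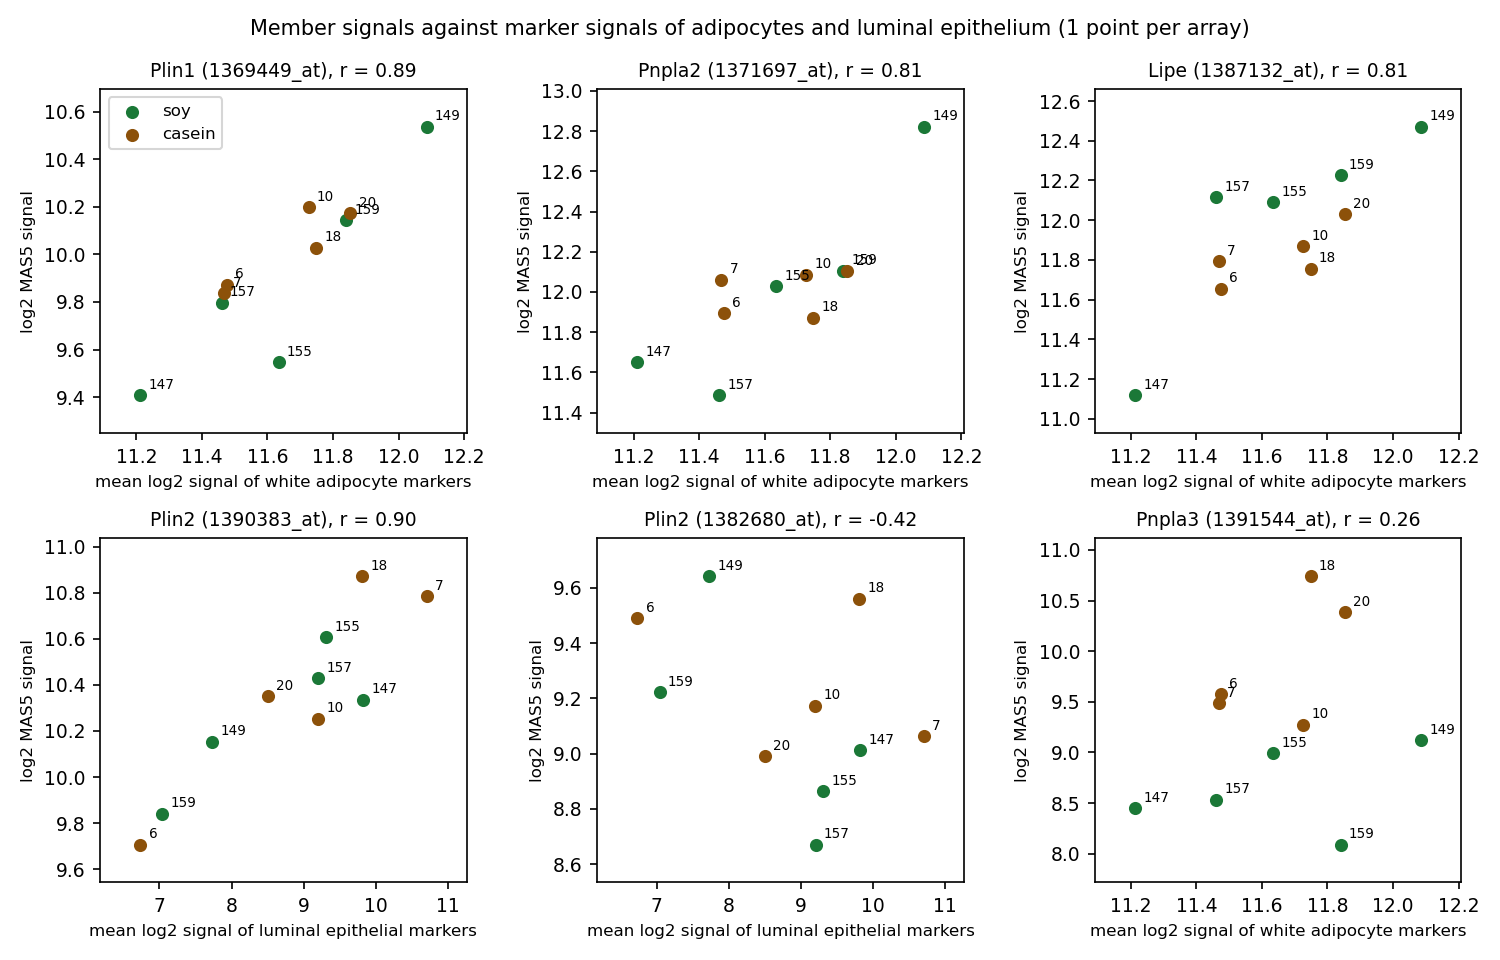
Log2 signal of 5 genes against the mean log2 signal of white adipocyte or luminal epithelial markers, 1 point per array with its number, soy in green and casein in brown. Plin1, Pnpla2 and Lipe lie along the adipocyte signal, with soy 149 at the top and soy 147 low, Plin2 lies along the luminal signal at 1390383_at but not at 1382680_at, and Pnpla3 scatters.

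Between the 8 genes themselves, at their brightest probe sets, 0 of 28 pairs passed after adjustment over the pairs. By Pearson's r the strongest pairs were Pnpla2 with Plin1 (Pearson r = 0.75, permutation p = 0.013, adjusted 0.18; Spearman rho = 0.78, p = 0.010, adjusted 0.15) and Pnpla2 with Mgll (r = 0.75, permutation p = 0.0097, adjusted 0.18; rho = 0.54, p = 0.11, adjusted 0.40). Without soy 149 and soy 157 r was 0.68 in the first pair and 0.41 in the second. By Spearman's rho the highest value was that of Pnpla3 with Lyplal1 (rho = 0.79, r = 0.71, permutation p = 0.0080 and 0.021, adjusted 0.15 and 0.20, r = 0.76 without casein 18 and casein 20). Both genes were picked for a lower signal in soy, which by itself gives a positive relation over the 10 arrays, so nothing is read from these values. As deviations from the diet means the r of this pair was 0.17, with 0.44 among the soy arrays and -0.20 among the casein arrays. Pnpla3 and its paralogue Pnpla2 had no relation that passed (r = 0.12, rho = 0.018, permutation p = 0.75 and 0.97, adjusted 0.77 and 1.0, r = 0.30 without casein 18 and casein 20). As deviations from the diet means r was 0.23, with 0.54 among the soy arrays and -0.37 among the casein arrays, so a relation is left undecided.

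The genes most like a member were taken as those with the highest Pearson r of log2 signal over the 10 arrays among 8149 tested probe sets of 1 gene, a description that includes any diet difference. The highest of so many r over 10 arrays are high by choice. Whether they exceed those of unrelated probe sets was not tested. The 3 most like Pnpla3 were genes of fatty acid synthesis. Fasn, fatty acid synthase, had r = 0.93 at a probe set with means of 10.68 ± 0.46 in soy and 11.91 ± 0.79 in casein (SD, n = 5 each). Fads1, the delta-5 fatty acid desaturase, had r = 0.92 and Acss2, which makes cytosolic acetyl-CoA from acetate, r = 0.91. As deviations from the diet means these were 0.84, 0.77 and 0.92, and the log2 fold changes of the 3 genes were -1.23, -0.60 and -0.45. Pnpla3 was picked for its lower signal in soy, so the search by r favoured genes lower in soy, and nothing is read from these signs. Casein 18 and casein 20, the 2 highest arrays for Pnpla3, were also the 2 highest for all 3 genes.

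**Figure D4:**
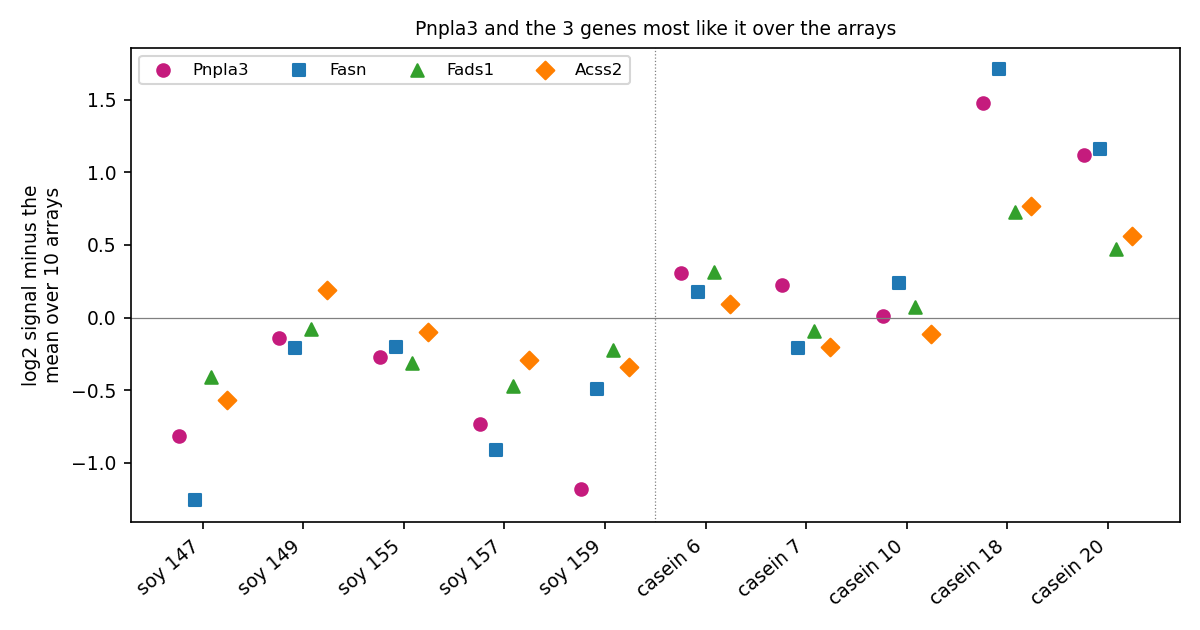
Log2 signal of Pnpla3, Fasn, Fads1 and Acss2 in each array, less each gene's mean over the 10 arrays, soy arrays left of casein arrays. All 4 genes are highest in casein 18, followed by casein 20, and most soy values lie below 0.

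Those most like Plin1 were Aldh6a1, an enzyme of valine breakdown, at r = 0.98, the lysosomal chitobiase Ctbs at 0.90 and Iqsec1, an exchange factor for ARF6, at 0.89. They were 0.98, 0.93 and 0.89 as deviations from the diet means, with log2 fold changes of -0.11, 0.0024 and -0.14. For Pla2g15 they were the dipeptidase Dpep1 at 0.92, Fam107a at 0.92 and the receptor Gpr146 at 0.89, with log2 fold changes of 0.58, 0.53 and 0.35. Their r as deviations from the diet means was 0.88, 0.73 and 0.83. For Lyplal1 they were Anapc1, a subunit of the anaphase-promoting complex, at 0.91, Cfap97 at 0.86 and Lrpap1, a chaperone of LDL receptor relatives, at 0.85. Their log2 fold changes were -0.29, -0.16 and -0.23, and their r as deviations from the diet means was 0.83, 0.76 and 0.70. None of the genes named as most like a member had an adjusted p under 0.05 in limma.

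The rest of the pathway gave no called difference. Of 122 genes listed for droplet coating and assembly, control of lipolysis, other lipases and phospholipases, 91 had a probe set and 69 passed the filter, each taken at its brightest probe set. No gene passed after adjustment, and 2 (2.90%) had an unadjusted p under 0.05 in limma, against 4.55% of all probe sets tested. The numbers of positive and negative log2 fold changes were 39 and 30, against 4505 and 5015 over all.

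Of 13 tested genes of droplet coating and assembly, 8 were positive and 5 negative, with a median of 0.04. The smallest p was that of Ldaf1, a partner of seipin in droplet formation, with 9.15 ± 0.21 in soy and 8.81 ± 0.16 in casein (SD, n = 5 each) and a log2 fold change of 0.34 ± 0.12 (SE, unadjusted p = 0.018 and adjusted p = 0.98 in limma). The droplet GTPase Rab18 was at 0.16 ± 0.09 (SE) and the adipocyte perilipin Plin4 at 0.38 ± 0.23 (SE). Fitm1, a droplet-forming protein of skeletal muscle, had the largest difference of the tested pathway genes, 1.12 ± 1.04 (SE), and was singled out after its values were seen. It was at 9.02, 9.79 and 10.15 in soy 147, soy 149 and soy 157 and at 11.12 in casein 6, the 4 arrays of highest muscle signal, against 6.20 to 6.63 in the other 6.

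Among 18 tested genes that control lipolysis, 12 were positive and 6 negative, with a median of 0.06 and 0 at an unadjusted p under 0.05. Prkacb, a catalytic subunit of protein kinase A, was at -0.20 ± 0.11, Pde3b, the phosphodiesterase through which insulin restrains lipolysis, at 0.31 ± 0.17, and the fatty acid carrier Fabp4 at 0.18 ± 0.14 (all SE). Prkar1a, a regulatory subunit of protein kinase A, was singled out after its values were seen because its 3 tested probe sets disagreed. The brightest was at 0.033, another at -0.14 and the dimmest at -0.43, with unadjusted p of 0.66, 0.13 and 0.0071 in limma, the last the smallest of any probe set of the pathway lists. Of 8 tested other lipases and their partners, 5 were positive and 3 negative, with a median of 0.09. Gpihbp1, which holds lipoprotein lipase on the capillary wall, was at 10.88 ± 0.28 in soy and 10.55 ± 0.21 in casein (SD, n = 5 each), a log2 fold change of 0.33 ± 0.14 (SE, unadjusted p = 0.044 and adjusted p = 0.98 in limma). The carboxylesterase Ces1d was at 0.29 ± 0.15 and the lipase Ddhd2 at -0.17 ± 0.11 (both SE).

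Of 30 tested phospholipases and lysophospholipases, 14 were positive and 16 negative, with a median of -0.0049 and 0 at an unadjusted p under 0.05. Plcb4, a phospholipase C, was at -0.28 ± 0.16, Pld4, of the phospholipase D family, at 0.30 ± 0.18 and Lypla2, an acyl-protein thioesterase, at -0.26 ± 0.16 (all SE). A second tested probe set of Pafah1b2, a subunit of a platelet-activating factor acetylhydrolase, was singled out after its values were seen, at -0.25 with an unadjusted p of 0.049 in limma, and the brightest one was also at -0.25 with an unadjusted p of 0.16.

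**Figure D5:**
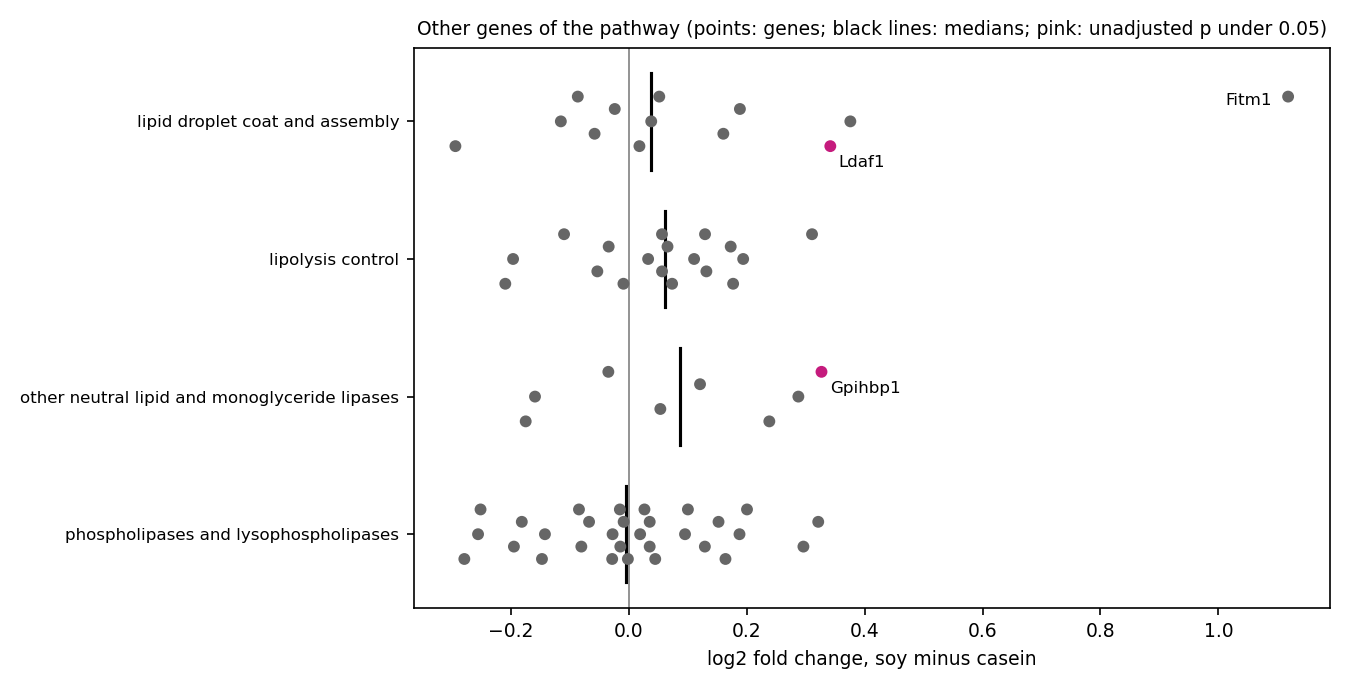
Log2 fold change, soy minus casein, of the 69 tested pathway genes in 4 lists, with each list's median as a black line. Apart from Fitm1 at 1.12 the genes lie within 0.4 of 0, and Ldaf1 and Gpihbp1 are the 2 with an unadjusted p under 0.05.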

How the data were processed

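Each probe set has 1 intensity (signal, linear scale) per 1-colour array, which the authors computed by the MAS5 algorithm (per the submitters' processing notes), its version and settings not given in the sources used here. The deposited scaling was kept: the mean signal after trimming 2% at each end was 500.1 on each array. A floor of 1 was applied before log2. Of 15866 probe sets other than controls, 12783 had 1 gene in the platform annotation. In place of detection calls, a filter at the 40th percentile of the mean log2 signal (7.47) left 9520 probe sets for 7151 genes. The diets were compared in limma 3.58.1 under R 4.3.3, using lmFit and a trended eBayes, two-sided, and p-values were adjusted by Benjamini-Hochberg over all 9520. The median SE of a difference was 0.144 on the log2 scale, and the number of arrays limits the precision. Correlations used two-sided tests with 100000 permutations. The limma step was tested on simulated data. Promoters came from RefSeq GRCr8.

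The members and lists were chosen with earlier results of these data known. Named in addition were the 3 tested genes of smallest p in each pathway list and the 3 genes most like each of 4 members. Alternatives were median centring, quantile normalization, a stricter or no filter, an added constant of 16, unmoderated or untrended variances, marker signals or the actin ratio as covariates, and leaving out arrays.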

Additional observations from a re-analysis of the deposited data

Results flagged for a closer look

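Lipe in soy 147 was at 11.12, far below the other 4 soy arrays, which lay between 12.09 and 12.47. Its gap to the nearest of them was 0.719 of the range of the soy arrays, above Dixon's critical value of 0.710 for 5 samples. It was 1 of 24 sets of 5 arrays looked at (12 probe sets in 2 diets), and chance alone marks about 1 in 20. Soy 147 also had the lowest adipocyte marker signal, and the part of this in the low Lipe signal was not tested.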

How the results depend on the processing

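The count of probe sets with an adjusted p under 0.05 was 0 in all 22 alternatives in limma, where the smallest adjusted p was 0.081 and 272 to 843 probe sets had an unadjusted p under 0.05. Of 241 member values under these alternatives 229 kept their sign and 12 turned. All 12 belonged to the 5 genes not picked for diet. The dim probe set of Mgll (1375355_at), tested only without the filter, is not among these values. There it was at 0.92 ± 0.47 (SE, unadjusted p = 0.075 in limma), opposite in sign to the brighter probe sets of Mgll. The count of kept signs includes the 3 picked genes, whose sign leaving out arrays could not turn, so it does not measure how steady the members are. Pnpla2, whose difference of 0.015 is near 0, turned to -0.037 with quantile normalization, -0.0064 with median centring and -0.21 without casein 6 and soy 149, and ran from -0.19 to 0.15 when 1 array was left out, and its largest value was 0.29, with muscle and lymph node covariates. With the same covariates Plin1 turned to 0.052, Mgll to 0.16 and 0.0053 at 2 probe sets and Plin2 at 1382680_at to 0.011. Mgll at its brightest probe set ran from -0.30 to 0.0038 when 1 array was left out. With arrays left out, Lipe and Mgll had an unadjusted p under 0.05 in some settings. The smallest was that of Lipe without soy 147 (unadjusted p = 0.0041 and adjusted p = 0.81 in limma). The causes were not tested. With the filter at the 60th percentile Lyplal1 was not tested. Pairs of members past the threshold numbered 0, and 0 to 1 when 1 array was left out. The relations of Pnpla2, Lipe, Mgll and Plin1 to the adipocyte markers missed the threshold without soy 147 or soy 149, those of Pnpla2, Lipe and Mgll also without casein 6 and that of Lipe without soy 159 or with quantile normalization (r = 0.65), with r from 0.67 to 0.97 when any 1 array was left out. The relation of Plin2 to the luminal markers passed when any 1 array was left out, with r from 0.86 to 0.94, but not when 2 or 4 arrays were (0.85 and 0.91). Leaving out several arrays, and the alternatives for correlations except quantile normalization for the pairs of members, were chosen after seeing the data. No paired analysis was possible because soy and casein arrays share no replicate number.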
